A study of Mus musculus with 29 samples.

Results

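The 10 genes described here, Tnf, Nfkbia, Nfkbiz, Tnfaip3, Tnip1, Tnip3, Bcl3, Nfkb2, Relb and Zc3h12a, are targets of the transcription factor NF-kB whose products act back on NF-kB signalling or on the RNAs it induces. They were chosen by name, with earlier results of these data known, so counts of members set beside shares of all genes are descriptions. All 10 were found among the 54532 genes of the count table and among the 18616 genes that were tested. Poly(A) RNA from the colon of 29 mice in 9 groups was sequenced, with 1 library per mouse. Each of 6 colitis models was compared with the control group labelled for its background.

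According to the labels, the BALB/c mice were the untreated controls (WT_control, n = 3), mice given 3% dextran sulfate sodium in drinking water for 5 days and culled at day 10 (DSS, n = 3), mice given 3 mg dinitrobenzene sulfonic acid in 200 µl of 50% ethanol by rectal instillation (DNBS, n = 3), and mice given an IL-10 blocking antibody (IL10, n = 4). The protocol gives that antibody as 750 µg of anti-IL-10R, with mice culled by 4 weeks, whereas the study's methods describe an Il10-/- model, so the group is called by its label. The methods also give C57Bl/6 mice and other cull days for DSS than the labels do. The groups labelled C57BL/6 Rag1-/- were untreated mice (Rag1_control, n = 3), mice culled 7 days after 50 µg of agonist anti-CD40 (aCD40, n = 3) and recipients of sorted naive CD4+ T cells culled after 6 to 8 weeks (TCT, n = 3), although the protocol calls the recipients Rag2-/-. BALB/c Rag2-/- mice were the controls (Rag2_control, n = 3) for untreated BALB/c Tbx21-/- x Rag2-/- mice (TRUC, n = 4), which develop colitis spontaneously. All Rag-deficient mice lack T and B cells of their own, so in TCT the T cells are the donor's. No vehicle group for the ethanol of DNBS was analysed here.

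NF-kB is held in the cytoplasm by inhibitor proteins until receptors for TNF, IL-1 or microbial products trigger their breakdown. Once in the nucleus it switches on inflammatory genes together with genes that end the response, among them an inhibitor of NF-kB itself, enzymes that edit ubiquitin chains on the signalling complexes, and a ribonuclease that degrades cytokine RNAs. In the colon the pathway acts both in epithelium and in the leukocytes that enter inflamed mucosa.

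Library totals ranged from 10725564 to 14977094 counts. Counts of the targeted genes did not follow every genotype label. Rag2 had 6 to 20 counts in the libraries labelled Rag1_control and 48 to 99 in those labelled aCD40, against 0 to 1 in WT_control, and 0 in TCT, while for Rag1 TCT held 20 to 33 counts and no other library more than 4. Rag2 was also counted in Rag2_control (15 to 25) and TRUC (57 to 94), and Tbx21 in TRUC (26 to 52). The IL10 label gives an antibody and no Il10 genotype, and Il10 had 61 to 111 counts there, against 1 to 4 in WT_control. For genes labelled as deleted, whether the reads fall in deleted parts cannot be read from gene counts. Rag1_control, aCD40 and TCT are therefore used here as the libraries labelled so. In these counts the libraries labelled Rag1_control and aCD40 showed the pattern of Rag2_control and TRUC, with Rag2 counted and Rag1 at 4 counts or fewer. TCT did not share the pattern of Rag1_control and aCD40. The comparisons of TCT with either group may thus also differ in Rag genotype, which cannot be told apart from the model. Epithelial markers were high in all 9 groups, with the 8 markers summing to 6769 to 22524 CPM, the count scaled to the size of the library.

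Promoter windows of 300 bases, 250 before and 50 after the transcript start, were at hand for 8 of the 10 genes (RefSeq, GRCm38.p6, 11 windows). Nfkbiz and Relb had no entry. Each window was searched on both strands for 6 kB-type motifs. Of these, 4 start with GGGA or GGGG, go on with NN and end with TTCC or TCCC, and the other two are GGGANTTCC and GGGGNTTCC, where N is any base. The motifs can overlap one another, and overlapping matches were counted as 1 place. At least 1 place was found in 8 of the 11 windows, belonging to 6 of the 8 genes, and in 6.87% of all 32851 windows in the reference table. A second definition, the degenerate decamer kB consensus, was tried after the matches of the 6 motifs had been seen. It matched the same 8 windows and 8.46% of all windows, and missed only the place in Bcl3 that lies 104 to 96 bases before the start. The windows printed here are those of Nfkbia and Tnfaip3, which rose in 5 models, of Tnip3 and Zc3h12a, which rose in all 6, and of Tnip1, which rose in none, with the matched letters in capitals. The windows lie at chr12:55492598-55492897 (minus strand) for Nfkbia, chr10:19015361-19015660 (minus strand) for Tnfaip3, chr11:54962891-54963190 (minus strand) for Tnip1, chr6:65590148-65590447 (plus strand) for Tnip3, and chr4:125127832-125128131 (minus strand) for Zc3h12a.
Nfkbia: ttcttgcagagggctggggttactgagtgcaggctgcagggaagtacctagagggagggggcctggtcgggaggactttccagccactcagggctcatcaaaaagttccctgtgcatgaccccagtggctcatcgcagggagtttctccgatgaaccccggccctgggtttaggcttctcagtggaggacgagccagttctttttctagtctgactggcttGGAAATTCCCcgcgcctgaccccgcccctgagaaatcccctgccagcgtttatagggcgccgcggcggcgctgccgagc
Tnfaip3: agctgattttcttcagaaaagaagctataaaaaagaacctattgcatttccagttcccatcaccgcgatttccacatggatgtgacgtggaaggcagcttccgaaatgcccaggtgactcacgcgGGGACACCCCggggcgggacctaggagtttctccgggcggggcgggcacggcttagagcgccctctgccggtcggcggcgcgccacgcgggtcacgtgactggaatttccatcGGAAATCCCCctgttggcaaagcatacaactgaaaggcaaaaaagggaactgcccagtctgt
Tnip1: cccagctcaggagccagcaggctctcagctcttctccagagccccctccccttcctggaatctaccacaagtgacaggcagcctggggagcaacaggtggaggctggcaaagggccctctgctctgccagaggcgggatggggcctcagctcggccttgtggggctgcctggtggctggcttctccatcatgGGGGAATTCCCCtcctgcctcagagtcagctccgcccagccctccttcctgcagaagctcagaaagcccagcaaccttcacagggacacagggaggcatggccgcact
Tnip3: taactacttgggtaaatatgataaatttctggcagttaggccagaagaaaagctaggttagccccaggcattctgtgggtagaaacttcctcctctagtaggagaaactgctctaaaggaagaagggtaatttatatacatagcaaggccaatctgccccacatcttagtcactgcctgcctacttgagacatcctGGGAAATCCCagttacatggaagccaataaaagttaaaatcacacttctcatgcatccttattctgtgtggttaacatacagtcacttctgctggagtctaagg
Zc3h12a: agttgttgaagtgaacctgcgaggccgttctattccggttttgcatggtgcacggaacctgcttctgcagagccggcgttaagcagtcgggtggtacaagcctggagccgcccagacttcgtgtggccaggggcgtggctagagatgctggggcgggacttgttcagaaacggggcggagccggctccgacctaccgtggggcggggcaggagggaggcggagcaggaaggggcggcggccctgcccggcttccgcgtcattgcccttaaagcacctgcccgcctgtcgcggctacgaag

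The place in Nfkbia lay 29 to 20 bases before the start, and Tnfaip3 held 2 places, at 125 to 116 and 12 to 3 bases before it. The stretch in Tnip1, 12 bases long, and that in Tnip3 lay 58 to 47 and 54 to 45 bases before the start. The 3 windows of Nfkb2 each held a place, and Tnf, Zc3h12a and the second window of Tnfaip3 held none. The second and the third window of Nfkb2 overlap. The only place in the third, 225 to 216 bases before its start, is the stretch 11 to 20 bases after the start of the second. That stretch therefore counts in both windows. A match is a run of letters in the reference, and neither binding nor use was measured, nor does a lack of matches in this window say anything about NF-kB at these genes.

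**Figure D1:**
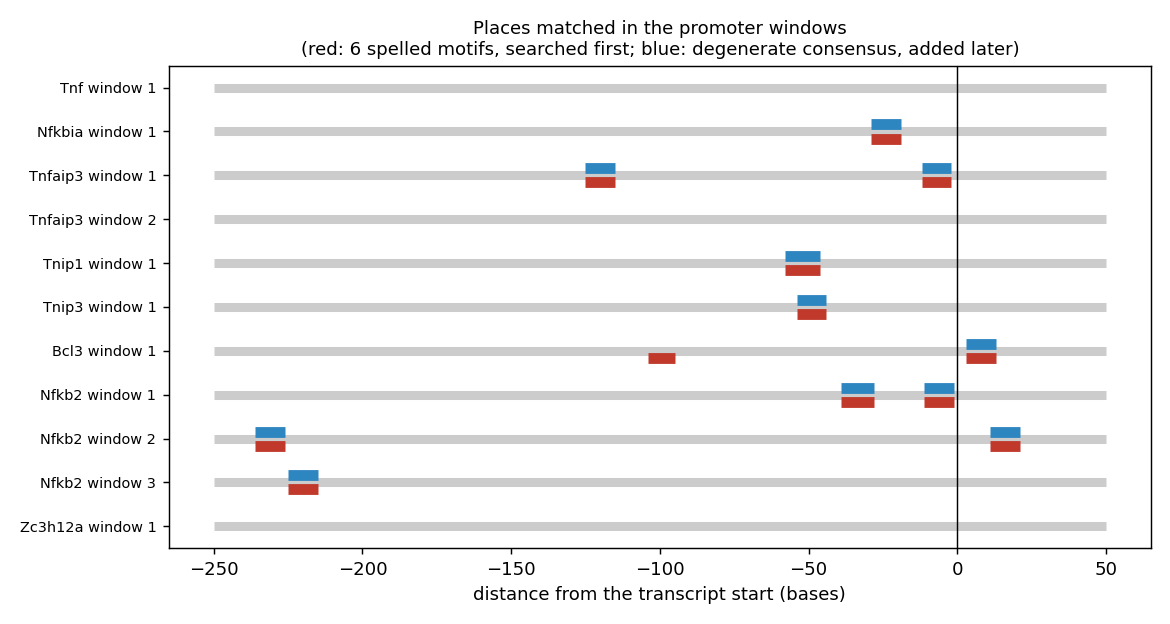
Places matched in each promoter window, with distance from the transcript start in bases on the horizontal axis and grey bars for the 300-base windows. Red marks the 6 motifs and blue the consensus added later, and the windows of Tnf and Zc3h12a and the second window of Tnfaip3 carry no mark.

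Across the 6 models, 37 of the 60 gene-by-model comparisons were called higher and 2 lower (adjusted p under 0.05, edgeR quasi-likelihood test over all genes), and 21 were not called. Tnip3 and Zc3h12a rose in all 6 models. Tnf, Nfkbia and Tnfaip3 rose in every model except DNBS, while Tnip1 and Relb rose in none and fell in TRUC. In TRUC 7 members rose and 2 fell, where 22.4% of all tested genes were called higher and 23.4% lower. In DSS 8 members rose (17.7% of all genes higher, 16.3% lower), in IL10 8 (27.2% higher, 26.1% lower), in TCT 6 (16.1% higher, 14% lower) and in aCD40 6 (10.9% higher, 10.7% lower), with none called lower. In DNBS 2 rose and none fell, where 3.95% of all genes were called higher and 2.21% lower. Every model mouse lay above every control mouse for 7 members in TRUC (28.8% of all genes), 8 in DSS (25.9%), 3 in DNBS (15.6%), 8 in IL10 (27.6%), 7 in TCT (21.4%) and 8 in aCD40 (19.2%). Every model mouse lay below every control for 2 members in TRUC (29.2%) and 1 in DNBS (16.9%). Upper quartile scaling moved the split of all calls from 5058 higher and 4858 lower to 3854 and 6187 in IL10, and from 736 and 412 to 542 and 520 in DNBS. The median log2 fold change over the 10 members was 1.64 in DSS, 1.55 in IL10, 1.37 in TRUC, 1.00 in TCT, 0.99 in aCD40 and 0.54 in DNBS, and the median of all genes lay between -0.03 and 0.02. The DSS median rested on DSS mouse 8 and was 0.87 without it, below those of IL10, TRUC, TCT and aCD40. Without DNBS mouse 16 the DNBS median was 0.20. DSS, DNBS and IL10 share their 3 control mice, as do TCT and aCD40, so these comparisons are not independent. In bulk colon, more cells that carry a transcript and more of the transcript per cell cannot be told apart.

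**Figure D2:**
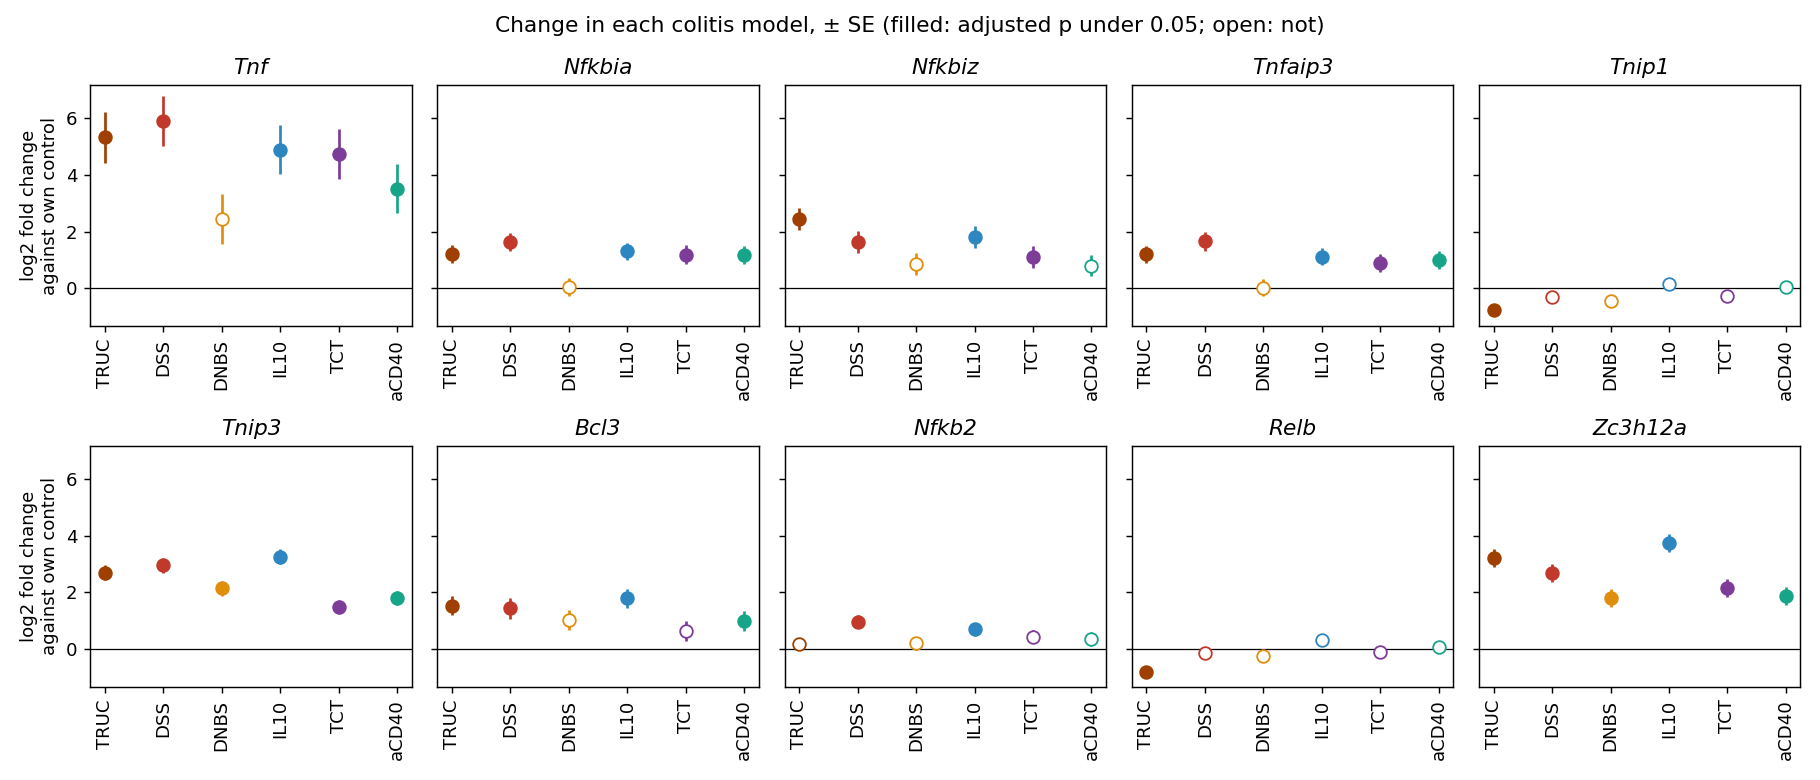
The log2 fold change of each gene in each model against its own control group, with bars of 1 SE, filled where the adjusted p is under 0.05 and open where it is not. Tnip3 and Zc3h12a are filled in all 6 models, and Tnip1 and Relb lie near or below 0.

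Tnf, the cytokine that both activates NF-kB and is induced by it (chr17:35199381-35202007, minus strand), was scarce in the untreated colon. The WT_control mice had 1.75, 0.732 and 1.31 CPM, from 11 to 23 counts. The DSS mice had 21.9, 15.9 and 187 CPM, the DNBS mice 2.39, 5.11 and 13.6 CPM and the IL10 mice 29.7, 37.2, 28.7 and 54.1 CPM. Every mouse of these 3 models lay above every WT_control mouse, and DSS mouse 8 was the highest of all 29. Tnf was 59.4-fold higher in DSS (log2 5.89 ± 0.89 SE, adjusted p = 3.77e-05) and 29.7-fold higher in IL10 (log2 4.89 ± 0.86, adjusted p = 6.56e-05). The DNBS difference of 2.45 ± 0.88 did not pass (adjusted p = 0.0905), although it passed without DNBS mouse 11 (adjusted p = 0.0383) and by DESeq2 on those groups alone (log2 2.48, adjusted p = 0.00104). Without DSS mouse 8 the DSS difference was 15.1-fold (log2 3.91, adjusted p = 0.00021) and so below that of IL10, and without DNBS mouse 16 that of DNBS was 1.56 (adjusted p = 0.451).

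The Rag1_control mice had 0.324, 2.36 and 1.03 CPM of Tnf, the TCT mice 43.6, 16.9 and 40.7 CPM, and the aCD40 mice 15.0, 16.5 and 12.1 CPM. The Rag2_control mice had 1.95, 0.459 and 0.755 CPM and the TRUC mice 45.0, 66.5, 35.0 and 18.7 CPM. No mouse of these models overlapped its controls. Tnf rose in TRUC (log2 5.32 ± 0.89, adjusted p = 5.87e-05), in TCT (4.73 ± 0.87, adjusted p = 0.000213) and in aCD40 (3.52 ± 0.87, adjusted p = 0.00599). Single control mice moved these sizes, to 6.06 in TRUC without Rag2_control mouse 1, and to 5.64 in TCT and 4.42 in aCD40 without Rag1_control mouse 3, with all 3 still called. The control levels rest on 4 to 32 counts a library, and the SEs of these folds were larger than those of the other members. Between models, away from the low controls, the SE of Tnf was also larger. It was 0.62 in IL10 against DSS, beside 0.29 for Nfkbia, and 0.69 in TCT against aCD40, beside 0.32. What sets the SE of Tnf was not tested.

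**Figure D3:**
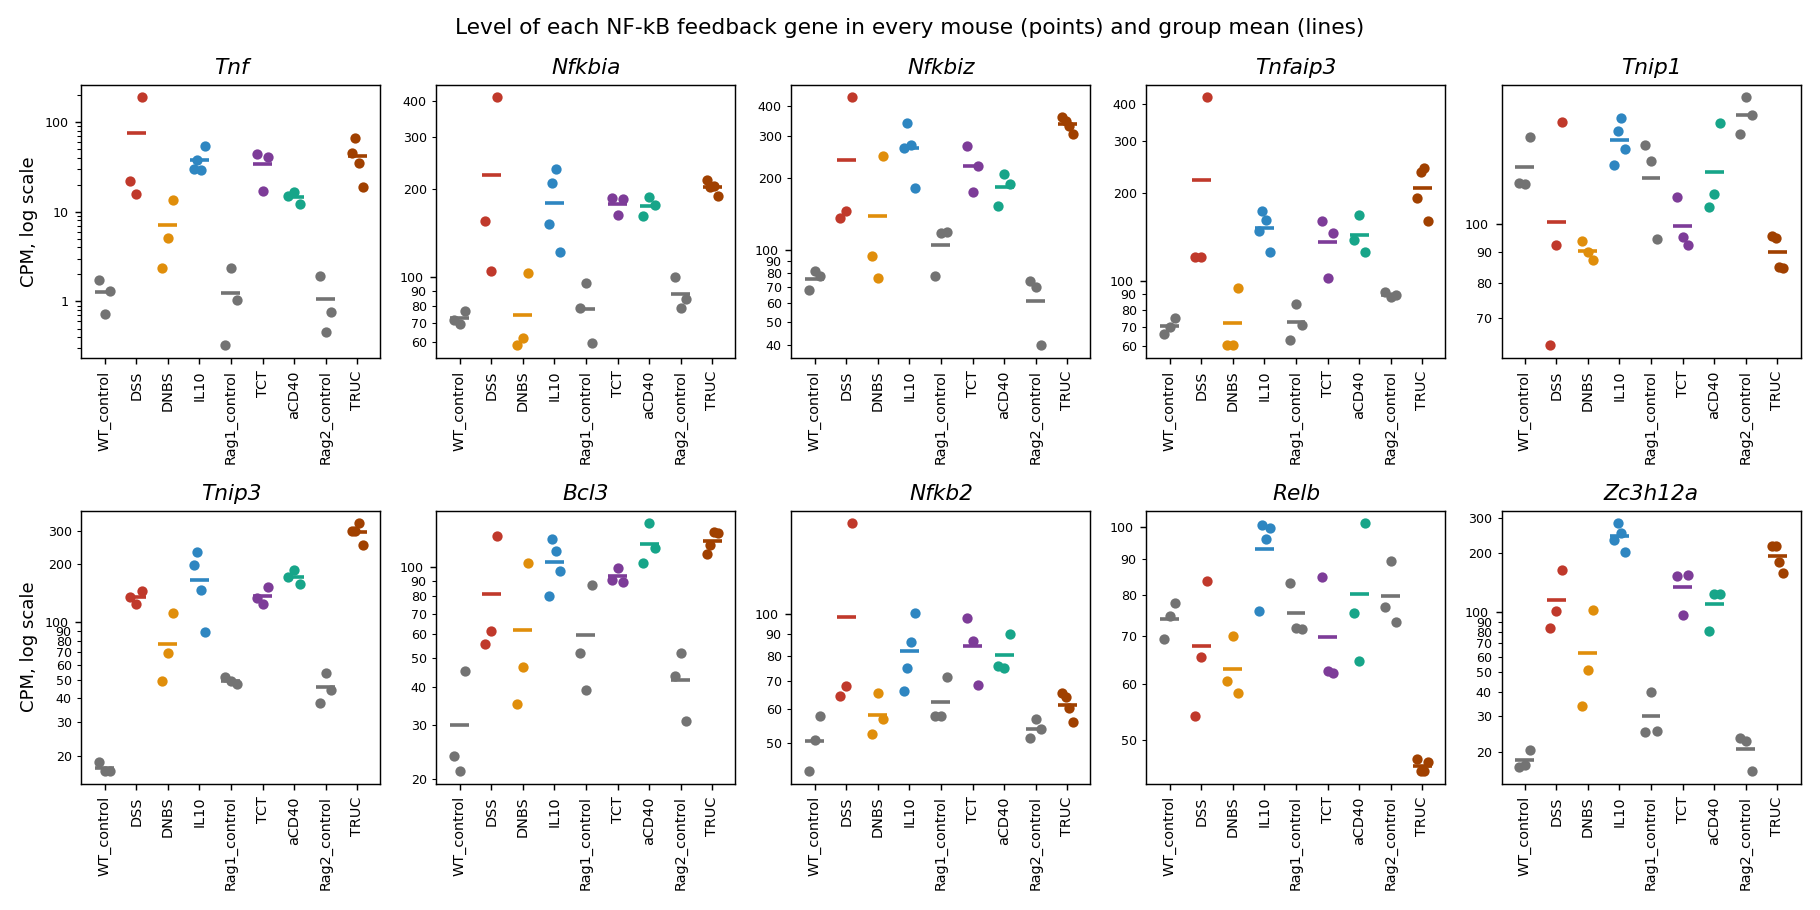
CPM of the 10 genes on log axes, 1 point per mouse and a line at each group mean, with control groups in grey. The spread within DSS for Tnf, Nfkbia, Nfkbiz, Tnfaip3 and Nfkb2 comes from 1 mouse above the other 2, and the TRUC points for Relb lie below those of all other groups.

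Nfkbia encodes IkB-alpha, the inhibitor that holds NF-kB in the cytoplasm (chr12:55489410-55492647, minus strand). WT_control mice had 71.4, 69.3 and 76.5 CPM, DSS mice 156, 105 and 410.5 CPM, and DNBS mice 58.5, 62.0 and 103 CPM. IL10 mice had 151, 209, 234 and 121 CPM. The DSS and IL10 mice lay above all WT_control mice, whereas 2 of the 3 DNBS mice lay below all of them. Nfkbia rose 3.09-fold in DSS (log2 1.63 ± 0.32, adjusted p = 0.000529) and 2.47-fold in IL10 (log2 1.31 ± 0.31, adjusted p = 0.00114). Without DSS mouse 8 the rise in DSS was 1.80-fold (log2 0.85, adjusted p = 0.0134). In DNBS the difference was 0.04 ± 0.32 (adjusted p = 0.958).

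In the Rag-deficient groups Nfkbia was at 78.3, 95.8 and 59.8 CPM in Rag1_control, at 186, 163 and 185 CPM in TCT and at 161, 187 and 176 CPM in aCD40. It was at 100.4, 78.6 and 84.5 CPM in Rag2_control and at 215, 202, 204 and 189 CPM in TRUC. The 3 models stood apart from their controls and their means lay between 175 and 203 CPM. The log2 fold change was 1.19 ± 0.32 in TCT (adjusted p = 0.00643), 1.16 ± 0.32 in aCD40 (adjusted p = 0.0122) and 1.21 ± 0.31 in TRUC (adjusted p = 0.00267). The aCD40 call was lost without Rag1_control mouse 4 or aCD40 mouse 7, with an adjusted p of up to 0.0631.

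Nfkbiz encodes IkB-zeta, a nuclear IkB protein that helps NF-kB to switch on a second wave of genes (chr16:55811375-55838899, minus strand). In TRUC it was at 359.7, 344, 329 and 305 CPM against 73.8, 69.6 and 39.8 CPM in Rag2_control. That is a log2 fold change of 2.45 ± 0.39 (adjusted p = 3.37e-05). The TRUC mice lay far above all control mice. DSS mice had 136, 145 and 434 CPM, DNBS mice 93.9, 76.3 and 246 CPM and IL10 mice 267, 338, 275 and 181 CPM, against 68.2, 81.9 and 77.6 CPM in WT_control. Nfkbiz rose in IL10 (1.81 ± 0.38, adjusted p = 0.000374) and in DSS (1.65 ± 0.39, adjusted p = 0.00221), the latter not without DSS mouse 8 (log2 0.89, adjusted p = 0.0623). In DNBS, where 1 mouse was high and 1 lay within the control range, the difference of 0.87 ± 0.38 did not pass (adjusted p = 0.163), and without the high mouse, DNBS mouse 16, it was 0.17.

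Rag1_control mice had 77.8, 118 and 119 CPM of Nfkbiz, TCT mice 271, 175 and 224 CPM and aCD40 mice 152, 206 and 188 CPM, so both models lay above all of their controls. The TCT difference of 1.09 ± 0.38 passed (adjusted p = 0.0332), but the call was lost when any of 5 of the 6 mice was left out (adjusted p = 0.0535 to 0.125). The 5 are Rag1_control mice 2, 3 and 4 and TCT mice 1 and 5. The aCD40 difference of 0.80 ± 0.38 did not pass (adjusted p = 0.135), though on those groups alone both edgeR (adjusted p = 0.00962) and DESeq2 (adjusted p = 0.000198) called it.

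Tnfaip3 encodes A20, which removes and replaces ubiquitin chains on the signalling complexes below TNF and Toll-like receptors (chr10:19000910-19015657, minus strand). It was at 66.1, 70.0 and 74.8 CPM in WT_control, 121, 121 and 422 CPM in DSS, and 60.4, 60.4 and 94.7 CPM in DNBS. In IL10 it was at 148, 174, 161 and 125 CPM. Tnfaip3 therefore followed the order seen for Nfkbia, with DNBS overlapping WT_control. It rose by 1.65 ± 0.32 in DSS (adjusted p = 0.000418) and by 1.11 ± 0.30 in IL10 (adjusted p = 0.00364) on the log2 scale, and the DNBS difference was 0.03 ± 0.31 (adjusted p = 0.968). Without DSS mouse 8 the rise in DSS was 0.79 (adjusted p = 0.00788). The DSS call was lost when DSS and WT_control were fitted without the other groups (log2 1.65, adjusted p = 0.0526).

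In Rag2_control Tnfaip3 was at 91.6, 88.3 and 89.4 CPM and in TRUC at 192, 234, 242 and 160.1 CPM (log2 1.21 ± 0.30, adjusted p = 0.00246). Rag1_control mice had 63.0, 83.9 and 70.9 CPM, TCT mice 161, 102 and 146 CPM and aCD40 mice 138, 168 and 126 CPM. No model mouse overlapped its controls. The differences of 0.91 ± 0.32 in TCT (adjusted p = 0.0321) and 0.99 ± 0.32 in aCD40 (adjusted p = 0.0283) passed narrowly. The TCT call was lost without Rag1_control mouse 2 or 4 or TCT mouse 1 or 5 (adjusted p up to 0.103). The aCD40 call was lost without Rag1_control mouse 2, 3 or 4 or aCD40 mouse 6 or 7 (adjusted p up to 0.123). Set against Rag2_control instead, neither passed, with log2 0.60 in TCT (adjusted p = 0.15) and 0.68 in aCD40 (adjusted p = 0.116).

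Tnip1 and Tnip3 encode ABIN-1 and ABIN-3, ubiquitin-binding partners of A20, and their transcripts went different ways. Tnip3 (chr6:65525313-65634040, plus strand) was at 18.6, 16.6 and 16.7 CPM in WT_control. It was at 135, 124 and 146 CPM in DSS, at 49.4, 68.8 and 111 CPM in DNBS and at 198, 232, 146 and 89.1 CPM in IL10. All of these mice lay above WT_control, and the DSS mice were close together here, mouse 8 included. Tnip3 rose 9.61-fold in IL10 (log2 3.26 ± 0.26, adjusted p = 1.29e-08), 7.79-fold in DSS (2.96 ± 0.27, adjusted p = 2.35e-07) and 4.40-fold in DNBS (2.14 ± 0.26, adjusted p = 8.17e-05).

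Rag1_control mice had 51.4, 49.0 and 47.2 CPM of Tnip3, TCT mice 133, 124 and 153 CPM and aCD40 mice 173, 186 and 159 CPM. Rag2_control mice had 37.8, 54.5 and 44.4 CPM and TRUC mice 300.0, 300.3, 329 and 251 CPM. TRUC mice had more Tnip3 than any other mice. The log2 fold change was 1.47 ± 0.25 in TCT (adjusted p = 8.82e-05), 1.81 ± 0.25 in aCD40 (adjusted p = 4.71e-05) and 2.69 ± 0.25 in TRUC (adjusted p = 6.82e-08). The RefSeq start whose window is printed above lies inside the span of the GENCODE gene.

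Tnip1 (chr11:54910785-54962917, minus strand) was called in 1 model only, TRUC. There it was at 95.7, 95.0, 85.0 and 84.8 CPM against 141, 163 and 152 CPM in Rag2_control, a fall of 0.75 ± 0.18 on the log2 scale (adjusted p = 0.00156). The groups did not overlap. WT_control mice had 117, 117 and 139.8 CPM, DSS mice 63.0, 92.4 and 148 CPM, and DNBS mice 94.0, 90.1 and 87.5 CPM. All DNBS mice lay below WT_control, but the difference of -0.46 ± 0.19 did not pass (adjusted p = 0.141), whereas DESeq2 on those groups alone called it (log2 -0.45, adjusted p = 0.00765). In DSS (-0.30 ± 0.19), IL10 (0.15 ± 0.18), TCT (-0.26 ± 0.19) and aCD40 (0.04 ± 0.19) the groups overlapped and no test passed. The Tnip1 difference in DSS passed without DSS mouse 8 (adjusted p = 0.005).

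Bcl3 encodes a nuclear IkB protein that binds p50 and p52 homodimers (chr7:19808462-19822770, minus strand). Rag2_control mice had 43.8, 51.9 and 31.1 CPM and TRUC mice 110.0, 118, 130.3 and 129 CPM, and it rose 2.88-fold (log2 1.53 ± 0.34, adjusted p = 0.000978). WT_control mice had 23.7, 21.2 and 45.2 CPM, DSS mice 55.6, 61.6 and 127 CPM, and DNBS mice 35.3, 46.7 and 103 CPM. IL10 mice had 80.0, 124, 113 and 97.0 CPM. DSS and IL10 lay above WT_control, while 1 DNBS mouse lay within it. Bcl3 rose in IL10 (1.79 ± 0.35, adjusted p = 0.000193) and in DSS (1.44 ± 0.36, adjusted p = 0.00345), the latter not without DSS mouse 8 (adjusted p = 0.0535). The DNBS difference of 1.04 ± 0.36 missed the threshold (adjusted p = 0.0789) and passed without WT_control mouse 4 or DNBS mouse 11 (adjusted p down to 0.0215).

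Rag1_control mice spread widely for Bcl3, at 52.2, 39.2 and 87.5 CPM. TCT mice had 90.9, 99.4 and 89.5 CPM and aCD40 mice 103, 139.6 and 116 CPM, all above the controls. The aCD40 difference of 1.00 ± 0.35 passed (adjusted p = 0.0437), but not without Rag1_control mouse 2 or 3 or any 1 of the 3 aCD40 mice (adjusted p up to 0.195). The TCT difference of 0.65 ± 0.35 did not (adjusted p = 0.172), and passed without Rag1_control mouse 4 (adjusted p = 0.0495). DESeq2 on those groups alone also called it (log2 0.66, adjusted p = 0.0425), as did edgeR against WT_control (1.64, adjusted p = 0.00165) and Rag2_control (1.14, adjusted p = 0.0163). Antisense Gm16175 overlaps 161 exonic bases of Bcl3, and the sources used here do not state that strand was used in counting.

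Nfkb2 and Relb encode the pair of subunits, p100/p52 and RelB, of the non-canonical pathway. Nfkb2 (chr19:46304320-46312385, plus strand) was at 43.0, 50.8 and 57.7 CPM in WT_control, at 64.3, 67.9 and 163 CPM in DSS and at 66.3, 74.9, 86.1 and 101 CPM in IL10. Both models lay above WT_control, and Nfkb2 rose by 0.96 ± 0.24 in DSS (adjusted p = 0.00303) and 0.70 ± 0.22 in IL10 (adjusted p = 0.0112). Each call rested on 1 mouse, since the first was lost without DSS mouse 8 (log2 0.39, adjusted p = 0.0913), and also when DSS and WT_control were fitted alone (adjusted p = 0.0985), and the second without WT_control mouse 1 (adjusted p = 0.063). In the other 4 models the difference was 0.19 to 0.44 and did not pass. Exons of the antisense genes Psd and AC114539.1 cover 830 bases of Nfkb2, so without strand its counts are uncertain.

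Relb (chr7:19606217-19629438, minus strand) fell in TRUC, to 46.9, 45.2, 45.2 and 46.5 CPM from 77.1, 89.4 and 73.3 CPM in Rag2_control. The 4 TRUC mice lay close together (SD 0.905 CPM) and below all other mice, and the log2 fold change was -0.80 ± 0.15 (adjusted p = 0.000181). In IL10 it was at 75.9, 100.3, 96.1 and 99.4 CPM against 69.4, 74.9 and 77.9 CPM in WT_control. That difference of 0.33 ± 0.15 missed the threshold (adjusted p = 0.0687), with 1 IL10 mouse inside the control range, and passed without that mouse, IL10 mouse 1 (adjusted p = 0.0287). In DSS, DNBS, TCT and aCD40 the difference was -0.23 to 0.09 and the groups overlapped.

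Zc3h12a encodes Regnase-1, a ribonuclease that degrades RNAs of inflammatory cytokines (chr4:125118423-125127840, minus strand). It was at 16.8, 17.2 and 20.3 CPM in WT_control. It was at 230.3, 281, 251 and 202 CPM in IL10, at 83.5, 102 and 163 CPM in DSS and at 33.8, 51.5 and 103 CPM in DNBS. All of these mice lay above WT_control, and the IL10 mice above every DSS and DNBS mouse. Zc3h12a rose 13.3-fold in IL10 (log2 3.74 ± 0.33, adjusted p = 3.25e-08), 6.41-fold in DSS (2.68 ± 0.32, adjusted p = 3.55e-06) and 3.46-fold in DNBS (1.79 ± 0.31, adjusted p = 0.00238).

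Rag1_control mice had 25.2, 39.6 and 25.3 CPM of Zc3h12a, TCT mice 153, 97.6 and 154 CPM and aCD40 mice 80.7, 124 and 124 CPM. Rag2_control mice had 23.3, 22.7 and 15.9 CPM and TRUC mice 216, 216, 180.3 and 157 CPM. Again no model mouse overlapped its controls. The log2 fold change was 3.22 ± 0.32 in TRUC (adjusted p = 1.16e-07), 2.17 ± 0.31 in TCT (adjusted p = 1.16e-05) and 1.87 ± 0.31 in aCD40 (adjusted p = 0.000249).

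Whether the 6 changes of a gene were equal was tested in the same fit. The change differed between models for 8 of the 10 members, where 60.5% of all genes were called, so that share is read only beside this background. Bcl3 (adjusted p = 0.173) and Nfkb2 (adjusted p = 0.0736) did not pass. DSS and DNBS, which share a strain label and controls, were also compared directly. Tnf, Nfkbia, Tnfaip3, Tnip3, Nfkb2 and Zc3h12a were higher in DSS than in DNBS, 6 members where 11.4% of genes were. The difference was 3.44 ± 0.75 for Tnf (adjusted p = 0.00252), 1.62 ± 0.32 for Tnfaip3 and 1.59 ± 0.32 for Nfkbia on the log2 scale. Without DSS mouse 8 only 2 members were called, and without DNBS mouse 11 only 3. DESeq2 on those groups alone called 3, Tnf, Nfkbia and Tnfaip3.

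Against DNBS, IL10 was higher in 8 members, where 17.4% of genes were higher, and the difference was 1.95 ± 0.30 for Zc3h12a and 0.56 ± 0.15 for Relb. Without DNBS mouse 11, 5 were called, and DESeq2 called 7. Against DSS, IL10 was higher in Zc3h12a (1.06 ± 0.29), Relb (0.46 ± 0.15) and Tnip1 (0.45 ± 0.18), 3 members where 24.6% of genes were higher and 25.1% lower, and no member was lower. DESeq2 called only Zc3h12a of these. Between TCT and aCD40 no member was called (edgeR, 18.4% of genes), and none had an unadjusted p under 0.05, whereas DESeq2 on those groups alone called 1, Tnf. That Tnf difference was 1.21 ± 0.69, with a 95% interval from -0.15 to 2.57, so the data leave room for a sizeable difference. For Nfkbia the interval ran from -0.59 to 0.65.

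Among the 3 control groups only Tnip3 differed (adjusted p = 0.000373), where 11.4% of genes did. It was higher by 1.51 in Rag1_control and by 1.40 in Rag2_control than in WT_control on the log2 scale, and the 3 WT_control mice lay below all 6 Rag-deficient controls. The fold of Tnip3 in a model is therefore set partly by which control it is read against. The TRUC and aCD40 mean of Tnip3 exceeded the DSS mean, for example, while the fold was larger in DSS.

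Divided by the length of all annotated exons merged, the members differed widely in level in the untreated colon. For Tnip3 that length is 10916 bases, and a shorter expressed transcript would give a higher level per kilobase. Which transcripts were expressed was not tested. In WT_control the mean was 45.0 CPM per kilobase for Nfkbia, 35.2 for Tnip1 and 19.1 for Relb, and 1.59 for Tnip3 and 0.77 for Tnf. In TRUC it was 126 for Nfkbia and 66.8 for Zc3h12a, against 25.5 for Tnip1. Tnip1, second of the 10 per kilobase in WT_control, thus lay below Zc3h12a in TRUC.

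Within groups, the members varied together to different degrees. After the group mean was subtracted from log2 CPM, Pearson's r over the 29 mice had a median of 0.53 over the 45 pairs of members, from -0.16 to 0.85. The pairs with the largest r were Nfkbia with Tnfaip3 (0.85), Nfkbiz with Zc3h12a (0.83) and Nfkbiz with Tnfaip3 (0.82). Tnip1 with Relb had 0.76, and Tnip3 had -0.16 with Nfkb2 and -0.13 with Relb. The mice share groups and, for DSS, 1 mouse far from the others, so these values are descriptions. IL10 mouse 4 also lay apart from its group, with epithelial markers at 22524 CPM against 12120 to 14789 CPM in the other IL10 mice. Of 12581 genes searched, those nearest to Tnfaip3 were Srgn (r = 0.95) and Nod2 (0.95), to Nfkbia Rsad2 (0.90) and Nod1 (0.87), to Nfkbiz Cebpd (0.90) and Dusp6 (0.89), and to Tnf Gbp9 (0.85) and Ifit1 (0.84). Those nearest to Zc3h12a were Nfkbiz (0.83) and Plet1 (0.82), to Bcl3 Sbno2 (0.87) and Cdc42se1 (0.86), and to Nfkb2 Tmem184b (0.91) and Rhog (0.90). Tnip1 was nearest to Smad7 (0.86) and Tns4 (0.85), Relb to Sult4a1 (0.86) and Gabarapl1 (0.84), and Tnip3 to S100a16 (0.85) and 9130204K15Rik (0.85).

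Markers of leukocytes moved with the models. The 6 neutrophil markers summed to 0.97 to 2.11 CPM in the control mice, with Cxcr2 at 0 in WT_control, Rag1_control and Rag2_control. They summed to 756 to 1257 CPM in TRUC, 190 to 1817 CPM in DSS, 132 to 342 CPM in IL10, 112 to 264 CPM in TCT, 32.9 to 191 CPM in aCD40 and 22.2 to 108 CPM in DNBS. DSS mouse 8, the highest mouse for Tnf, Nfkbia, Nfkbiz, Tnfaip3 and Nfkb2, had the most at 1817 CPM. Of these 6 markers all rose in every model but aCD40, where 4 did. The 6 monocyte and macrophage markers summed to 230 to 378 CPM in controls and to 844 to 1826 CPM in DSS and 1159 to 2066 CPM in TCT, with 6 called higher in TRUC, DSS and TCT, 3 in IL10, 2 in aCD40 and 1 in DNBS.

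Lymphocyte and tissue markers changed in some models. Of all genes, 22.4% were called higher and 23.4% lower in TRUC, 17.7% and 16.3% in DSS, and 27.2% and 26.1% in IL10. The shares were 16.1% and 14% in TCT, 10.9% and 10.7% in aCD40, and 3.95% and 2.21% in DNBS. Where 1 marker of a list below was called, or 2 epithelial markers lower in TRUC, the share was near or under that of all genes. The 6 T cell markers summed to 73.8 to 128 CPM in IL10 and 34.2 to 55.4 CPM in DSS, against 10.8 to 17.6 CPM in WT_control, with 6 and 5 of them higher. In TCT they summed to 96.1 to 176 CPM, against 3.48 to 4.93 CPM in Rag1_control, with all 6 higher. In TRUC 4 of them rose, to a sum of 7.23 to 9.07 CPM from 2.30 to 5.96 CPM in Rag2_control, and in DNBS and aCD40 none was called. TRUC mice lack T cells of their own, and which cells carry these transcripts there was not tested. Of 5 B cell markers, 4 rose in DSS (105 to 334 CPM, against 67.5 to 112 CPM in WT_control), 1 in TCT and none in the other 4 models. Of 5 smooth muscle markers, 4 fell in IL10 (2238 to 4249 CPM, against 5751 to 7057 CPM) and 2 in TRUC (2533 to 3785 CPM, against 5325 to 5845 CPM). Of 4 endothelial markers, 4 rose in DSS (214 to 293 CPM, against 136 to 144 CPM) and 2 in DNBS, and 1 fell in IL10. Of the 8 epithelial markers, 5 rose in IL10, 3 in TRUC, 2 in aCD40, 1 in DSS and TCT and none in DNBS, while 2 fell in TRUC, 1 in IL10, DSS, TCT and aCD40 and none in DNBS.

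Within groups, the neutrophil sum had an r of 0.66 with Tnfaip3, 0.56 with Tnf and 0.52 with Zc3h12a, and of 0.04 with Relb (n = 29). The macrophage sum had 0.67 with Tnfaip3 and 0.53 with Nfkb2, the B cell sum 0.68 with Nfkbia and 0.54 with Nfkbiz, and the smooth muscle sum -0.55 with Tnfaip3. The mice share groups, and these are descriptions. The part of these cells in the members' changes was not tested.

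**Figure D4:**
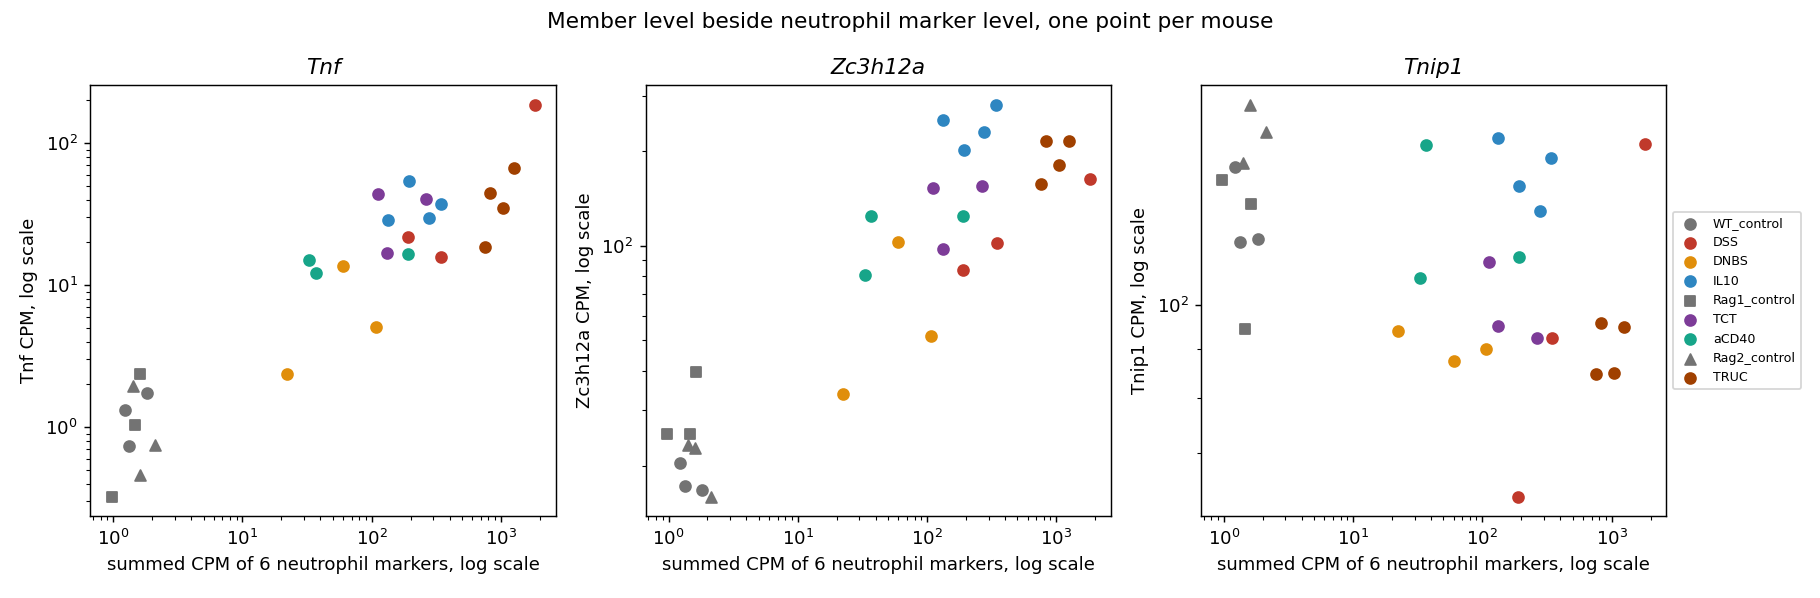
CPM of Tnf, Zc3h12a and Tnip1 against the summed CPM of 6 neutrophil markers, both on log axes, with 1 point per mouse and grey for controls. Control mice sit at 0.97 to 2.11 CPM of the markers and all model mice at 22.2 CPM or more, and Tnip1 spans 63.0 to 163 CPM.

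The other genes of the pathway were read from 6 lists, where 22.4% of all genes rose in TRUC, 17.7% in DSS, 3.95% in DNBS, 27.2% in IL10, 16.1% in TCT and 10.9% in aCD40. Of the 3 remaining NF-kB subunits, 3 rose in DSS and IL10, 2 in TCT, 1 in TRUC and aCD40 and none in DNBS. Rel, the c-Rel subunit of leukocytes, rose in 5 models, by 3.45 in TRUC and 2.21 in DSS on the log2 scale, and was at 0.41 in DNBS (adjusted p = 0.297). Nfkb1 rose in 3 models, by 0.55 to 0.67. Of the 3 other inhibitors, 3 rose in DSS, 2 in TRUC, IL10 and TCT, 1 in aCD40 and none in DNBS. Nfkbib, for IkB-beta, rose in 5 models, by at most 1.28 (IL10). Nfkbid, another nuclear IkB protein, rose by 2.43 in DSS, 1.32 in TCT and 1.22 in TRUC, and the DSS mice ranged from 8.68 to 48.9 CPM.

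Of 11 TNF receptors and adaptors, 6 rose in TRUC and TCT, 5 in DSS and IL10, 3 in aCD40 and 2 in DNBS, with 1 lower in TRUC and 1 in DSS. Both receptors of TNF rose in all 6 models. Tnfrsf1b, for TNFR2, had 24.7 CPM in WT_control, 268 CPM in DSS and 60.3 CPM in DNBS, and its log2 fold change ran from 1.29 in DNBS (adjusted p = 0.042) to 3.45 in TRUC. Tnfrsf1a, for TNFR1, rose by 0.91 in DNBS (adjusted p = 0.0437) to 1.71 in IL10. Of 8 upstream kinases, 5 rose in TRUC and DSS, 3 in TCT, 2 in IL10, 1 in aCD40 and none in DNBS, and 1 fell in DSS. The shares in IL10 (25% of the list, where 27.2% of all genes rose) and aCD40 (12.5% against 10.9%) lay near those of all genes. Ikbke and Map3k7 rose in 3 models each, by at most 0.79 and 0.42. Map3k8, which encodes Tpl2, rose by 2.09 in DSS, where the mice ranged from 12.5 to 53.3 CPM, and by 1.31 in TCT.

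Of 12 genes of ubiquitin editing and RNA decay, 5 rose in IL10, 4 in DSS, 3 in TRUC and aCD40, 2 in TCT and none in DNBS, while 1 or 2 fell in each model but DNBS. These shares lay near those of all genes in TRUC (25% against 22.4%) and TCT (16.7% against 16.1%). Zfp36, for the RNA-destabilizing tristetraprolin, rose by 1.56 in DSS, 1.02 in TRUC, 0.96 in aCD40 and 0.85 in IL10, and Cyld, a deubiquitinase, rose in 4 models by 0.54 to 0.83. Itch and Rnf11, partners of A20, fell in 3 models each, by 0.23 to 0.43 on the log2 scale. Of the same list, Tax1bp1 rose by 0.62 in IL10 and 0.88 in aCD40, and Tnip2 by 0.38 in TRUC and 0.51 in DSS. Of 8 RNAs known as targets of Regnase-1 or of IkB-zeta, 8 rose in DSS, 5 in TRUC, IL10 and TCT, 4 in aCD40 and 3 in DNBS. The DSS mice lay far apart for these RNAs, with Il1b at 48.4 to 1290 CPM, Ptgs2 at 21.8 to 667 CPM and Il6 at 0.755 to 45.1 CPM. The pathway genes were not refitted with single mice left out, so how far their DSS rises rest on 1 mouse was not tested. Il1b rose by 2.94 (aCD40) to 8.47 (DSS), against controls of 4 to 21 counts. Cxcl1, a neutrophil chemokine, rose by 3.85 (DNBS) to 7.49 (TRUC), against controls of 1 to 6 counts. Cxcl2, which had at most 3 counts in any control mouse, had 430 to 7027 counts in DSS and 320 to 591 in TRUC. Lcn2, a siderophore-binding protein, rose in 5 models and was at 2.86 in DNBS (adjusted p = 0.0507).

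**Figure D5:**
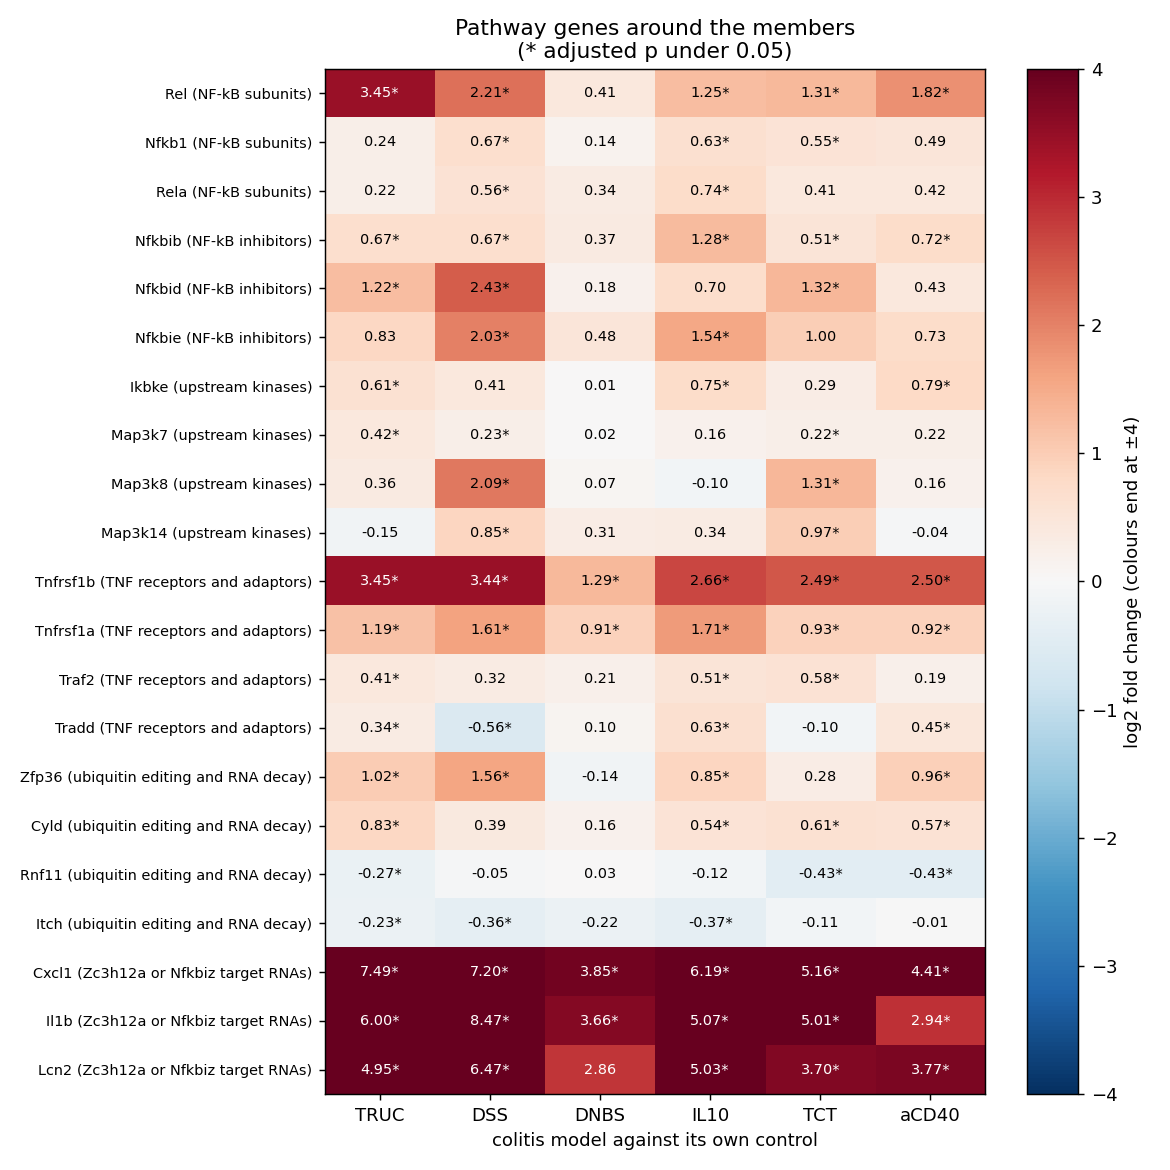
Log2 fold change of the named pathway genes in each model against its own control, as colour and number, with an asterisk where the adjusted p is under 0.05. Cxcl2 is left out because its controls had at most 3 counts. Tnfrsf1a, Tnfrsf1b, Cxcl1 and Il1b carry an asterisk in all 6 models.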

How the data were processed

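Poly(A) RNA of colon segments from 29 mice was sequenced, 1 library per mouse, so replicates are mice. The authors deposited 1 table of raw counts per Ensembl gene. Their processing notes name Trimmomatic, HISAT2, HTSeq and GRCm38, with versions and strand setting not given in the sources used here. Groups came from the labels. Of 54532 genes, the 18616 with a mean count of at least 3 were tested. The 92 spike-in rows held no counts. Symbols and positions were taken from a GRCm38 annotation. The 10 members and the other gene lists were chosen with earlier results of these data known.

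Counts were scaled by TMM and fitted for all 9 groups together with edgeR 4.0.16 (quasi-likelihood test, R 4.3.3), without covariates. P-values were adjusted by Benjamini-Hochberg over all tested genes, with a threshold of 0.05. SEs were computed from each log2 fold change and its F statistic. Intervals are the difference ± 1.96 SE. CPM uses TMM-scaled totals, and depth (10725564 to 14977094 counts) sets 3 counts at 0.179 to 0.313 CPM. No 2 libraries of a group were identical, and over 33 within-group pairs the chi-square per degree of freedom was at least 3.65. The members are all named, and other pathway genes were named by a rule on how many models called them. Alternatives were other scalings, filters and thresholds, each comparison fitted alone, DESeq2 1.42.0, other control groups, a replicate block and leaving out each mouse. The motif consensus, DESeq2 between models, and Rag2_control for TCT were added after seeing the data.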

Additional observations from a re-analysis of the deposited data

Results flagged for a closer look

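For 8 members the change was not equal in the 6 models by an F-test of the difference itself in the edgeR fit. The adjusted p was 6.29e-05 for Zc3h12a, whose log2 fold change ran from 1.79 in DNBS to 3.74 in IL10, and 0.000352 for Tnip3, from 1.47 in TCT to 3.26 in IL10. It was 0.000641 for Relb and 0.00822 for Tnip1, both lowest in TRUC and highest in IL10. It was 0.00566 for Tnfaip3, 0.00675 for Nfkbia and 0.00694 for Tnf, all lowest in DNBS and highest in DSS, and 0.0318 for Nfkbiz, lowest in aCD40 and highest in TRUC. The same test called 60.5% of all genes, and the models share controls and differ in strain, agent and time, which cannot be told apart here.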

How the results depend on the processing

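Of the 39 called member values, 30 kept direction and call when any 1 mouse was left out and 9 lost the call at least once, and 5 of the 21 others gained one. Over these leave-outs the members called higher numbered 7 in TRUC, 5 to 8 in DSS (5 without DSS mouse 8), 2 to 4 in DNBS (4 without DNBS mouse 11), 7 to 9 in IL10, 4 to 6 in TCT and 3 to 5 in aCD40 (3 without aCD40 mouse 7). All genes called ranged over 6900 to 8039, 3835 to 6286, 198 to 2342, 8350 to 9626, 4087 to 5780 and 1749 to 4747 in the same order. Members with unequal change numbered 6 to 9, and those differing between controls 1. Between models, DSS against DNBS called 2 to 7 members, IL10 against DNBS 5 to 9, IL10 against DSS 2 to 5 (5 without DSS mouse 6) and TCT against aCD40 0. Values near 0 changed sign: Tnfaip3 in DNBS ranged from -0.21 to 0.15, Nfkbia in DNBS from -0.26 to 0.19, Tnip1 in aCD40 from -0.12 to 0.14, Relb in DSS from -0.31 to 0.0023 and Relb in aCD40 from -0.11 to 0.22.

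Upper quartile scaling moved the median of all genes to -0.14 in TRUC and -0.18 in IL10. It turned Nfkbia (-0.046) and Tnfaip3 (-0.052) in DNBS and Tnip1 in IL10 (-0.017) and aCD40 (-0.024), none of them called, and left 1 member called between IL10 and DSS. A threshold of 0.01 left 3869 genes in DSS, 221 in DNBS, 3514 in TCT and 1852 in aCD40, and 3 members in aCD40. DNBS had 512 calls fitted with WT_control alone and 1881 by DESeq2, against 1148. DESeq2 called 1 member between TCT and aCD40. DESeq2 called 3 members between DSS and DNBS, 7 between IL10 and DNBS and 1 between IL10 and DSS. Against WT_control, TCT had 8 members higher, gaining Bcl3 (1.64) and Nfkb2 (0.74), with Tnip3 at 2.98. Against Rag2_control, TCT had 7, gaining Bcl3 (1.14) and Nfkb2 (0.64) and losing Tnfaip3 (0.60), with Tnip1 lower (-0.61), and aCD40 had 6, gaining Nfkbiz (1.58) and losing Tnfaip3 (0.68), with Tnip1 at -0.31. The causes of these shifts were not tested.

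Replicate numbers did not pair the mice, with same-number correlations of -0.118 to 0.124. A fit with the replicate block on each pair of groups alone called 7 members higher in TRUC (7029 genes) and 8 in IL10 (7630 genes), with no member call changed. TRUC and Rag2_control share only numbers 2 and 4, and IL10 and WT_control share 1, 2 and 4. A mouse whose number is in 1 group only adds nothing to such a contrast, so this fit is a weak check. The other comparisons share fewer than 2 numbers. Of the members, Tnf had the fewest counts in control mice, at 4 to 32.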
